A study of Mus musculus with 12 samples.

Results

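Transcripts of 10 genes for enzymes that make itaconate, nitric oxide, polyamines and prostaglandins, or that detoxify superoxide, were followed in J774A.1 cells, a mouse macrophage line. The genes were Acod1, Nos2, Ptgs1, Ptgs2, Ptges, Arg2, Ass1, Gch1, Sod2 and Odc1, chosen by name from the count tables of unstimulated and LPS-stimulated cells, which together list 18719 genes. They and the partner genes below were chosen with earlier results of these data known. Of the 10, 9 are listed for unstimulated cells and 10 after LPS, since Arg2 is missing from the unstimulated table. RNA-seq was performed on 12 libraries, with 3 in each of 4 groups: WT and ACAT1 KO cells, unstimulated or given lipopolysaccharide (LPS, a bacterial ligand of TLR4) at 100 ng/ml for 2 h. WT cells had received a Cas9 and GFP vector with no guide RNA, and ACAT1 KO cells the same vector with a guide to the fourth exon of Acat1, which encodes a mitochondrial acetyl-CoA acetyltransferase. All lines were sorted by GFP and grown out from a few cells per well as clonal populations, and the study describes 3 different lines per genotype. The labels do not say which cultures were separate, so p-values measure the spread between these libraries.

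In macrophages, TLR4 signaling switches on a set of enzymes whose small products act on microbes and on neighboring cells. ACOD1 decarboxylates the TCA cycle intermediate cis-aconitate to itaconate, while inducible nitric oxide synthase, encoded by Nos2, oxidizes arginine with the cofactor tetrahydrobiopterin and competes with the arginases for that substrate. Cyclooxygenases convert arachidonic acid to prostaglandin H2, which terminal synthases turn into prostaglandin E2 and other prostanoids, and ornithine decarboxylase opens polyamine synthesis from ornithine.

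Total counts per library were 56948593 to 127263834 in unstimulated cells and 96704955 to 167280149 after LPS. Acat1, the targeted gene, was lower in each ACAT1 KO library than in every WT library, at 89.8 to 120.3 CPM (counts scaled to a common library total) in WT and 28.6 to 32.1 CPM in ACAT1 KO cells without stimulation, and at 58.2 to 84.8 against 16.7 to 17.9 CPM after LPS. All 10 macrophage marker genes examined are listed in both states. Of 6 markers of other cell types, Pecam1 is listed in both states and Col1a1 after LPS only. The LPS-responsive genes Tnf, Il1b and Nfkbia rose in WT and in ACAT1 KO cells. After LPS, Il1b and Tnf were higher in ACAT1 KO than in WT cells, at 536 ± 149 against 195 ± 60.4 CPM and 2557 ± 511 against 1697 ± 203 CPM (SD, n = 3, edgeR adjusted p = 0.0130 and 0.0333), and Nfkbia did not pass. Of the 10 macrophage markers, 4 were called higher (Cd14, Itgam, Spi1 and Mrc1) and 2 lower (Fcgr1 and Tlr4) in the same comparison, beside 5.93% and 9.12% of all genes. Without stimulation 2 were called lower (Adgre1 and Fcgr1), beside 1.17% of all genes. The part of these shifts in the differences of the members was not tested. In 3 unstimulated libraries (WT replicates 1 and 2 and ACAT1 KO replicate 2), 0.394% to 0.503% of counts fell on noncoding genes antisense to exons, against 0.227% to 0.296% in the other 9, and these 3 are called the high-antisense libraries. Unstimulated differences within them rest on 1 ACAT1 KO library. Those within the others, or from fits without these 3, rest on 1 unstimulated WT library. The unstimulated WT replicate 1 also had 11.8% of its counts in its 10 most abundant genes, against 5.24% to 6.74% elsewhere. CPM values were scaled within each state, whereas fold changes between states come from a fit of all 12 libraries. On the scale of that fit, unstimulated CPM are multiplied by 0.891 to 0.904 and LPS CPM by 1.1 to 1.12. CPM measure a share of each library's RNA, so less RNA of a gene per cell and fewer cells that carry it cannot be told apart.

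The LPS comparison asked how these enzymes respond to 2 h of TLR4 stimulation in each genotype. In WT cells, 9 of the 9 members in both tables changed at an adjusted p under 0.05, against 57.4% of all 16535 genes tested. Of these, 8 rose, where 29.3% of all genes rose, and Ptgs1 fell, where 28% of all genes fell. In ACAT1 KO cells the same 9 members changed, against 60.7% of all genes, and again 8 rose and Ptgs1 fell, where 29.5% of all genes rose and 31.2% fell. Their median log2 fold change was 1.26 in WT and 1.11 in ACAT1 KO cells, beside -0.02 and -0.03 over all genes tested. The rise ran from 425-fold for Nos2 and 239-fold for Acod1 in WT to 1.54-fold for Ass1. The Nos2 value is loosely placed, since unstimulated WT libraries held only 12 to 28 of its reads. Its log2 fold change in WT ran from 8.20 to 9.36 in fits that left out single libraries. Both comparisons also had all 9 members with no overlap between their groups, against 61% of all genes in WT and 67.8% in ACAT1 KO cells.

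The genotype comparison asked which of the enzymes differ once ACAT1 is disrupted. Without stimulation, 1 of 9 members passed the threshold, against 1.91% of all 16440 genes tested, and this was Ptgs1, which was lower in ACAT1 KO cells, as were 1.17% of all genes. By unadjusted p, 3 of 9 were under 0.05 (Ptgs1, Ptgs2 and Odc1), against 19.7% of all genes, and 3 of 9 had groups that did not overlap (Ptgs1, Odc1 and Gch1), against 25.8%. After LPS, 5 of 10 members passed, against 15.1% of all 16483 genes tested. Acod1 and Sod2 were higher in ACAT1 KO cells, where 5.93% of all genes were, and Nos2, Ptgs1 and Odc1 were lower, where 9.12% of all genes were. The groups of these 5 members did not overlap, against 37.6% of all genes, and 7 of 10 passed an unadjusted p under 0.05, against 31.3%. With 3 against 3 libraries an exact permutation test cannot go below p = 0.1, so each test comes from the edgeR quasi-likelihood fit across all genes, with p-values adjusted by Benjamini and Hochberg's method and SE for the standard error of a log2 fold change. The interaction, which asks whether the LPS response differed between genotypes, was called for 0 of 9 members by that test and by DESeq2 and limma-voom, with 0 of 9 at an unadjusted p under 0.05. Over all genes, 0.187% were called and 8.92% had an unadjusted p under 0.05.

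**Figure D1:**
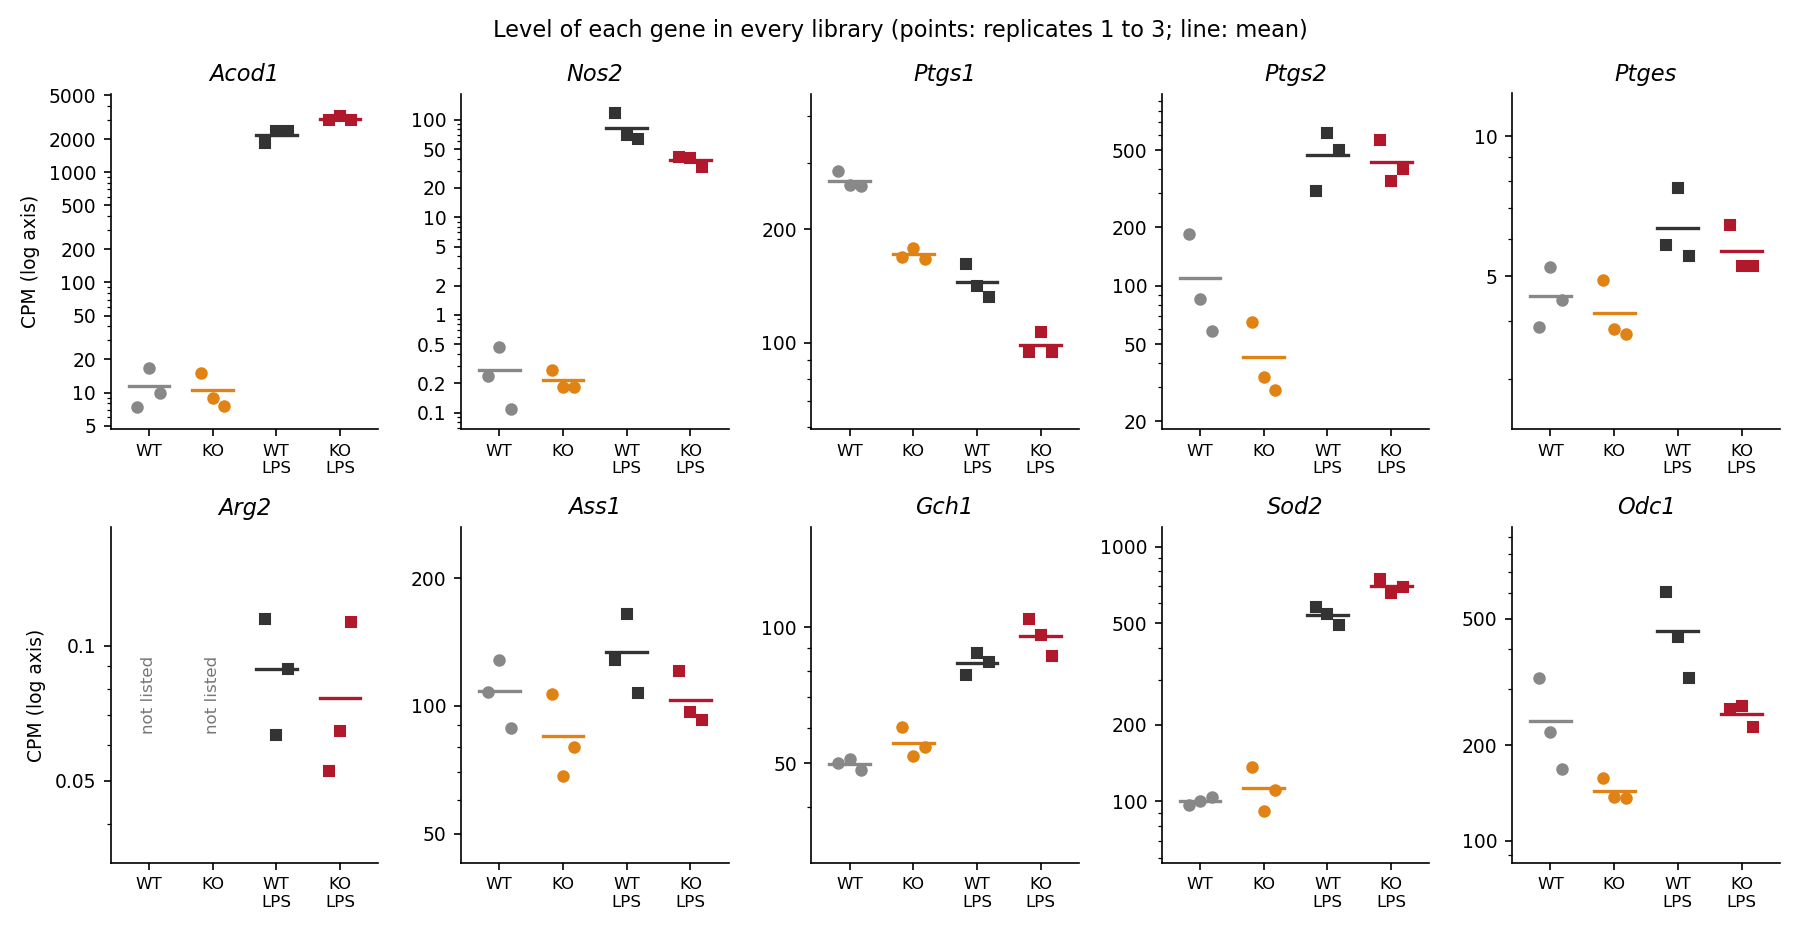
CPM of each of the 10 genes in all 12 libraries on log axes (points are replicates 1 to 3 from left to right, lines are group means, and Arg2 is not listed in unstimulated cells). Acod1 and Nos2 sit far higher in every LPS library than in any unstimulated one, and after LPS the 3 ACAT1 KO libraries of Nos2, Ptgs1 and Odc1 lie below all 3 WT libraries.

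**Figure D2:**
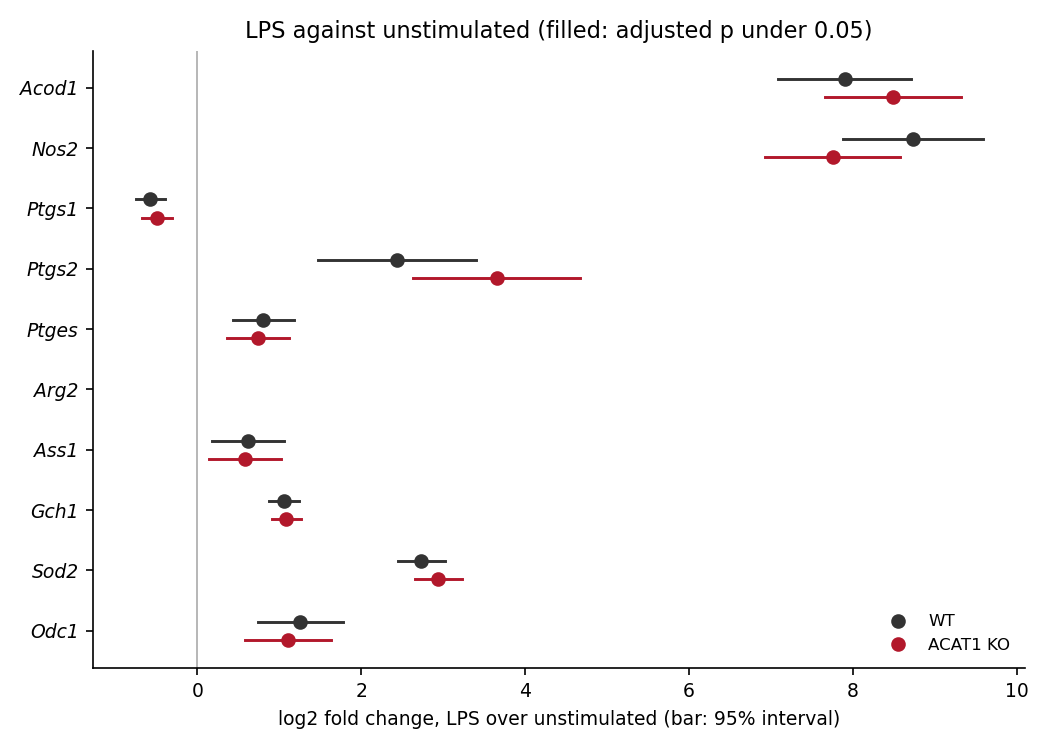
Log2 fold change of LPS against unstimulated cells in WT (black) and ACAT1 KO cells (red), with 95% intervals, where a filled point passed an adjusted p under 0.05. Acod1 and Nos2 lie between 7.75 and 8.73 and only Ptgs1 lies below 0. Arg2 has no point because it is not listed in unstimulated cells.

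Acod1 encodes aconitate decarboxylase 1, the enzyme that makes itaconate, and is found at 103046977 to 103056573 of chromosome 14, plus strand, in GRCm38 (ENSMUSG00000022126). The 250 bases before its RefSeq start, at chr14:103046762-103047011 (+ strand) in GRCm38.p6, are shown because Acod1 was the most abundant member after LPS. The capitals mark the letters ACGTG, the core of the hypoxia response element, found here on the opposite strand.
Acod1: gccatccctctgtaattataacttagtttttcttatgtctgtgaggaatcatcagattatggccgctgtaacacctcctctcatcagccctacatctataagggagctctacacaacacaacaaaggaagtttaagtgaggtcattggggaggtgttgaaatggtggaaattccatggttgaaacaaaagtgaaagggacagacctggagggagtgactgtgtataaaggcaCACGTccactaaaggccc
These letters, on either strand, occur in 16.6% of the 32851 RefSeq promoters searched over the same length.

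Without stimulation, Acod1 was at 7.44, 16.9 and 9.98 CPM in WT replicates 1, 2 and 3, and at 15.0, 8.97 and 7.59 CPM in the ACAT1 KO replicates. The groups overlapped, and the log2 fold change of ACAT1 KO against WT was -0.12 (95% interval -0.98 to 0.73). After LPS, it reached 1849, 2358 and 2355 CPM in WT and 2978, 3239 and 2990 CPM in ACAT1 KO cells. Each ACAT1 KO library lay above every WT library, with means of 2187 ± 293 CPM in WT and 3069 ± 147 CPM in ACAT1 KO cells (SD, n = 3). The log2 fold change was 0.49 (SE 0.104, edgeR adjusted p = 0.0214), or 1.4-fold higher. The adjusted p rose to 0.0567, 0.0785 and 0.0536 without ACAT1 KO replicate 1, 2 or 3, at log2 fold changes of 0.51, 0.45 and 0.51, and to 0.301 when all 12 libraries shared a fit. Acod1 thus took 0.182% to 0.238% of all counts in WT and 0.293% to 0.324% in ACAT1 KO cells after LPS, against at most 0.00176% in any unstimulated library. By counts it ranked from 13th to 36th of 17874 genes in the LPS libraries.

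LPS raised Acod1 by a log2 fold change of 7.90 in WT (SE 0.370, edgeR adjusted p = 8.24e-09) and 8.49 in ACAT1 KO cells (SE 0.378, edgeR adjusted p = 4.37e-09), the 10th and 11th largest rises of 16535 genes. The difference between these responses was 0.59 on the log2 scale (95% interval -0.27 to 1.45, adjusted p = 0.772). This interval includes both no difference and the full size of the difference seen after LPS.

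Of the 16 genes listed as neighbors of itaconate in the TCA cycle and its breakdown, 15 were tested. Of all genes, 1.91% passed the threshold between genotypes without stimulation and 15.1% after LPS. Among the 15, only Cs, which encodes citrate synthase, passed, and it was lower in ACAT1 KO cells in both states. Its level was 274 ± 18.9 CPM in WT and 200.4 ± 9.62 CPM in ACAT1 KO cells without stimulation (SD, n = 3), with a log2 fold change of -0.45 (adjusted p = 0.0427, edgeR). After LPS it was 271 ± 21.8 and 209 ± 1.69 CPM, a log2 fold change of -0.37 (adjusted p = 0.0118). The list's median was 0.01 without stimulation and -0.03 after LPS, beside 0.0035 and -0.0041 over all genes. LPS raised 4 and lowered 2 of the 15 in WT, and raised 3 and lowered 3 in ACAT1 KO cells. Over all genes, LPS raised 29.3% and lowered 28% in WT, and raised 29.5% and lowered 31.2% in ACAT1 KO cells. Among them, Idh1, the cytosolic isocitrate dehydrogenase, fell by 1.00 on the log2 scale in each genotype (adjusted p = 2.91e-05 and 2.73e-05, edgeR).

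Nos2, which encodes inducible nitric oxide synthase, occupies bases 78920787 to 78960254 of chromosome 11, plus strand (ENSMUSG00000020826). It was close to silent without stimulation, with 15, 28 and 12 reads in WT replicates 1, 2 and 3 and 34, 15 and 20 in the ACAT1 KO replicates, or 0.108 to 0.473 and 0.183 to 0.273 CPM. After LPS it was counted at 116, 70.5 and 62.8 CPM in WT and at 41.4, 41.0 and 32.7 CPM in ACAT1 KO cells. All 3 ACAT1 KO libraries were below all 3 WT libraries, and WT replicate 1 stood above the other two. Group means were 83.1 ± 28.8 and 38.4 ± 4.90 CPM (SD, n = 3), a log2 fold change of -1.12 (SE 0.218, edgeR adjusted p = 0.0158), or 2.17-fold lower. Leaving out ACAT1 KO replicate 2 or 3 moved the adjusted p to 0.0533 and 0.0585 at log2 fold changes of -1.17 and -1.01.

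LPS raised Nos2 by 8.73 on the log2 scale in WT (SE 0.390, edgeR adjusted p = 5.80e-09) and by 7.75 in ACAT1 KO cells (SE 0.374, edgeR adjusted p = 8.30e-09). These were the 8th and 18th largest rises of 16535 genes. The difference of the responses was -0.98 (95% interval -2.32 to 0.36, adjusted p = 0.735), and the reads without stimulation are too few to place it more closely. Without unstimulated WT replicate 3 it was -0.45, and without replicate 2 it was -1.61. Without the high-antisense libraries it was -2.18, which rests on 1 unstimulated WT library with 12 reads.

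Gch1 encodes GTP cyclohydrolase 1, which starts tetrahydrobiopterin synthesis, and occupies bases 47153895 to 47189413 of chromosome 14, minus strand (ENSMUSG00000037580). It was at 50.1, 51.2 and 48.2 CPM in unstimulated WT and 60.1, 51.9 and 54.5 CPM without stimulation in ACAT1 KO cells. With LPS it was at 78.5, 87.6 and 83.9 CPM in WT and 104, 95.9 and 86.4 CPM in ACAT1 KO cells. The ACAT1 KO libraries lay above WT without stimulation and overlapped them after LPS, with log2 fold changes of 0.15 (adjusted p = 0.283) and 0.19 (adjusted p = 0.132, edgeR) that did not pass. LPS raised it by 1.06 in WT and 1.08 in ACAT1 KO cells (adjusted p = 4.38e-07 and 3.00e-07, edgeR), and the difference of 0.03 had a 95% interval of -0.22 to 0.28, the narrowest of the 9.

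Ass1 encodes argininosuccinate synthase 1, which helps rebuild arginine from citrulline, and occupies bases 31470207 to 31520672 of chromosome 2, plus strand (ENSMUSG00000076441). Its levels were 108, 128 and 88.8 CPM in unstimulated WT and 107, 68.3 and 80.1 CPM without stimulation in ACAT1 KO cells. LPS libraries held 129, 165 and 107 CPM in WT and 121, 96.9 and 92.4 CPM in ACAT1 KO cells. The genotypes overlapped in both states, at log2 fold changes of -0.35 (95% interval -0.80 to 0.11) and -0.37 (95% interval -0.73 to -0.0029), with adjusted p = 0.377 and 0.157, edgeR. LPS raised Ass1 by 0.62 in WT (adjusted p = 0.0191, edgeR) and 0.58 in ACAT1 KO cells (adjusted p = 0.0242), the smallest rises among the members. The WT rise did not pass without unstimulated WT replicate 1 (0.59, adjusted p = 0.0545), unstimulated WT replicate 3 (0.49, adjusted p = 0.0743) or LPS WT replicate 2 (0.44, adjusted p = 0.0923). The ACAT1 KO rise did not pass without unstimulated replicate 2 (0.45, adjusted p = 0.0866), unstimulated replicate 3 (0.54, adjusted p = 0.0694) or LPS replicate 1 (0.45, adjusted p = 0.0990). Of the 50-base stretches of Ass1 transcripts, 38.6% also occur in Gm5424, a gene with 58 to 185 counts per library and at most 1.36% of the Ass1 counts.

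Arg2 encodes the mitochondrial arginase, occupies bases 79130777 to 79156301 of chromosome 12, plus strand (ENSMUSG00000021125) and was close to silent. After LPS it had 11, 7 and 15 reads in WT and 5, 8 and 13 in ACAT1 KO cells. The groups overlapped, and the log2 fold change was -0.18, whose 95% interval of -1.08 to 0.71 allows either direction, so no difference was detectable at this depth. Its exons share 285 bases with Vti1b and 116 with Gm48780 on the other strand, and the strand setting of the counting is not given in the sources used here. Arg1, which encodes the cytosolic arginase, is not listed in either state.

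Of 15 partners in arginine transport and nitric oxide synthesis, 12 were tested. Between genotypes, 0 passed without stimulation, where 3 of 12 had an unadjusted p under 0.05 by edgeR, against 19.7% of all genes. After LPS, 1 of 12 passed, beside 15.1% of all genes. This was Slc7a1, a cationic amino acid transporter, at 180.4 ± 12.3 CPM in WT and 142 ± 8.46 CPM in ACAT1 KO cells (SD, n = 3), which is -0.35 in log2 fold change (adjusted p = 0.0174, edgeR). The list's median was -0.01 and -0.04, beside 0.0035 and -0.0041 over all genes. Slc7a2, a second cationic amino acid transporter, was the one partner raised by LPS in each genotype, from 20.3 ± 3.01 to 385 ± 75.9 CPM in WT and from 14.9 ± 0.761 to 442 ± 52.1 CPM in ACAT1 KO cells (SD, n = 3). The log2 fold changes were 4.56 and 5.19 (adjusted p = 1.52e-09 and 5.72e-10, edgeR). The other nitric oxide synthase genes were low: Nos1 stayed under 2.64 CPM and Nos3 under 0.801 CPM in every library. LPS lowered 3 of the 12 partners in WT and 6 in ACAT1 KO cells, beside 28% and 31.2% of all genes, among them Nosip, which encodes a protein that binds nitric oxide synthases, and Pts, which encodes the second enzyme of tetrahydrobiopterin synthesis.

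Odc1 encodes ornithine decarboxylase, the entry to polyamine synthesis, and occupies bases 17544794 to 17551505 of chromosome 12, plus strand (ENSMUSG00000011179). Its 250 bases before the RefSeq start, at chr12:17544623-17544872 (+ strand) in GRCm38.p6, are shown beside those of Ptgs1 because both genes were lower in all ACAT1 KO libraries of both states. They hold none of the motifs searched, on either strand: the kappaB consensus, AP-1 (TGANTCA), the cyclic AMP response element (TGAC followed by GTCA), the interferon-stimulated response element (GAAA, any 2 bases, GAAA) and ACGTG.
Odc1: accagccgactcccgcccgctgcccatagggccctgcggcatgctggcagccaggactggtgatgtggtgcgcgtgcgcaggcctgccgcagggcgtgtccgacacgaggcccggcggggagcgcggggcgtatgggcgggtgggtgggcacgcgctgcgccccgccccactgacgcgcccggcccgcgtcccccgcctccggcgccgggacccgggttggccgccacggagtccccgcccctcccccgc

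Odc1 was at 324, 219.9 and 169 CPM in unstimulated WT and 158, 137 and 137 CPM in unstimulated ACAT1 KO cells. The groups did not overlap, but WT replicate 1 stood well above WT replicate 3, and the log2 fold change of -0.72 (SE 0.223) did not pass (adjusted p = 0.147, edgeR). It was -0.96 within the high-antisense libraries and -0.20 within the others, and -0.45 without WT replicate 1. DESeq2 called it at an adjusted p of 0.00456. After LPS the levels were 607, 437 and 326 CPM in WT and 259.6, 265 and 227 CPM in ACAT1 KO cells, again with no overlap. The log2 fold change was -0.86 (SE 0.195, edgeR adjusted p = 0.0249), or 1.82-fold lower. It missed the threshold without WT replicate 2 (adjusted p = 0.0644) and without ACAT1 KO replicate 1, 2 or 3 (adjusted p = 0.0723, 0.0721 and 0.0842), at log2 fold changes of -0.79 to -0.91.

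Genes of chromosome 12 as a group were lower in ACAT1 KO cells, with a median log2 fold change of -0.26 over 585 genes without stimulation and -0.28 over 584 after LPS, where 41.1% of them were called lower. Less that median, the Odc1 difference was -0.47 and -0.58, and the part of the chromosome in it was not tested. Reads of Odc1 are also hard to separate from its copies. Of its 50-base stretches, 24.3% occur in other genes, including 11.7% in Gm7993 and 8.88% in Gm9260, and counts of Gm7993 reached 16.3% of the Odc1 counts. These 2 genes had the patterns most like Odc1 over the 12 libraries (Pearson r = 0.996 and 0.988 on log2 CPM), so Odc1 values are uncertain by what the counting assigned to them.

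LPS raised Odc1 by 1.26 on the log2 scale in WT (SE 0.238, edgeR adjusted p = 6.98e-04) and by 1.11 in ACAT1 KO cells (SE 0.238, edgeR adjusted p = 0.00160). The difference was -0.15 (95% interval -0.88 to 0.58). Of 15 polyamine partners, 14 were tested, and 0 passed between genotypes without stimulation, where 3 of 14 had an unadjusted p under 0.05 by edgeR, against 19.7% of all genes. After LPS, Azin1, whose product keeps ornithine decarboxylase active by binding its antizyme, was lower at 378 ± 46.7 CPM in WT and 286 ± 11.6 CPM in ACAT1 KO cells (SD, n = 3), which is -0.40 in log2 fold change (adjusted p = 0.0231, edgeR). Sms, which encodes spermine synthase, was higher at 99.9 ± 4.70 and 115 ± 4.03 CPM, a log2 fold change of 0.20 (adjusted p = 0.0469). Of the 14, 1 was thus called higher and 1 lower after LPS, beside 5.93% and 9.12% of all genes. LPS raised 7 and lowered 1 of the 14 in WT, beside 29.3% and 28% of all genes, and raised 3 and lowered 2 in ACAT1 KO cells, beside 29.5% and 31.2%. Amd1, which encodes S-adenosylmethionine decarboxylase, rose by 0.71 and 0.85 and Azin1 by 0.73 and 0.53 in WT and ACAT1 KO cells, while Paox, a polyamine oxidase, fell by 1.07 and 1.09 (all by edgeR, adjusted p at most 1.14e-04). The list's median between genotypes was 0.04 without stimulation and -0.01 after LPS.

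Ptgs1 encodes cyclooxygenase 1, the constitutive prostaglandin H2 synthase, and occupies bases 36230426 to 36252272 of chromosome 2, plus strand (ENSMUSG00000047250). It was the one member that fell after LPS and the one that passed between genotypes in both states. The 250 bases before its RefSeq start, at chr2:36230176-36230425 (+ strand) in GRCm38.p6, hold none of the motifs above.
Ptgs1: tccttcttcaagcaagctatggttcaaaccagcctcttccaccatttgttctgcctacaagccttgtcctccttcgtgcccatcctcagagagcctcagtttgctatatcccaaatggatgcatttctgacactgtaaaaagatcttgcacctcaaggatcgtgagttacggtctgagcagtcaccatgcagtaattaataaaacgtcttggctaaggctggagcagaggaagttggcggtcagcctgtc

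Ptgs1 was at 286, 262 and 259.9 CPM in unstimulated WT and 169, 179 and 167 CPM in unstimulated ACAT1 KO cells. LPS libraries had 162, 141 and 133 CPM in WT and 94.5, 107 and 94.5 CPM in ACAT1 KO cells. Within each state every ACAT1 KO library was below every WT library. The log2 fold change of ACAT1 KO against WT was -0.65 without stimulation (SE 0.0662, edgeR adjusted p = 0.0162) and -0.56 after LPS (SE 0.0871, edgeR adjusted p = 0.00756), or 1.57-fold and 1.47-fold lower. After LPS it passed in all 6 fits that left out a library. Without stimulation it missed the threshold without WT replicate 1 or 2 (adjusted p = 0.0547 and 0.0755), ACAT1 KO replicate 1 or 3 (adjusted p = 0.0690 and 0.0902), or all 3 high-antisense libraries (adjusted p = 0.0507), while the log2 fold change stayed between -0.68 and -0.62. It was -0.61 within the high-antisense libraries, with 1 ACAT1 KO library, and -0.63 within the others, with 1 WT library. The median over chromosome 2 moved the other way, at 0.19 in each state. Gm43621 overlaps 148 of its exonic bases on the other strand, with at most 1.88% of the Ptgs1 counts.

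LPS lowered Ptgs1 by a log2 fold change of -0.57 in WT and -0.50 in ACAT1 KO cells (adjusted p = 8.03e-05 and 2.44e-04, edgeR), and the difference of 0.08 had a 95% interval of -0.17 to 0.33. On the scale of the 12-library fit, ACAT1 KO cells after LPS held the lowest Ptgs1 levels of the 4 groups.

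Ptgs2 encodes cyclooxygenase 2, the inducible form, and occupies bases 150100031 to 150108227 of chromosome 1, plus strand (ENSMUSG00000032487). It was at 185, 85.4 and 58.6 CPM in unstimulated WT and 65.2, 33.9 and 29.1 CPM in unstimulated ACAT1 KO cells. The groups overlapped, since ACAT1 KO replicate 1 lay above WT replicate 3. The log2 fold change of -1.36 (SE 0.480, 95% interval -2.49 to -0.22) did not pass (adjusted p = 0.190, edgeR). It was -1.89 within the high-antisense libraries and -0.43 within the others, and -0.76 without WT replicate 1. With the replicate number as a block it passed, at -1.28 (adjusted p = 0.0324, edgeR). That block pairs WT and ACAT1 KO libraries of the same number, although these are different lines, so the pass is not counted as a call. After LPS it was at 310.1, 613 and 503 CPM in WT and 564, 349 and 399.8 CPM in ACAT1 KO cells. These groups overlapped, with a log2 fold change of -0.12 (95% interval -0.70 to 0.46, adjusted p = 0.784).

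LPS raised Ptgs2 by 2.44 on the log2 scale in WT (SE 0.442, edgeR adjusted p = 5.01e-04) and by 3.66 in ACAT1 KO cells (SE 0.466, edgeR adjusted p = 2.76e-05). The difference of 1.22 was the largest of the 9 members and had a 95% interval of -0.08 to 2.53 (unadjusted p = 0.0640, adjusted p = 0.600). Libraries with the same number differed between states by 1.06, 3.16 and 3.42 in WT and by 3.41, 3.68 and 4.07 in ACAT1 KO cells, so WT number 1 stood apart. Without unstimulated WT replicate 1 the difference was 0.65, and without the high-antisense libraries it was 0.21.

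The ratio of Ptgs2 to Ptgs1, taken within each library on CPM per kilobase of exon, was 0.546, 0.276 and 0.191 in unstimulated WT and 0.327, 0.161 and 0.148 in unstimulated ACAT1 KO libraries. After LPS it was 1.62, 3.68 and 3.22 in WT and 5.06, 2.76 and 3.59 in ACAT1 KO libraries. Ptgs1 transcripts thus outnumbered those of Ptgs2 per length in all 6 unstimulated libraries, and the reverse held in all 6 LPS libraries, with overlap between the genotypes in each state. The length is that of all annotated exons of a gene joined, whichever of them these cells use.

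**Figure D3:**
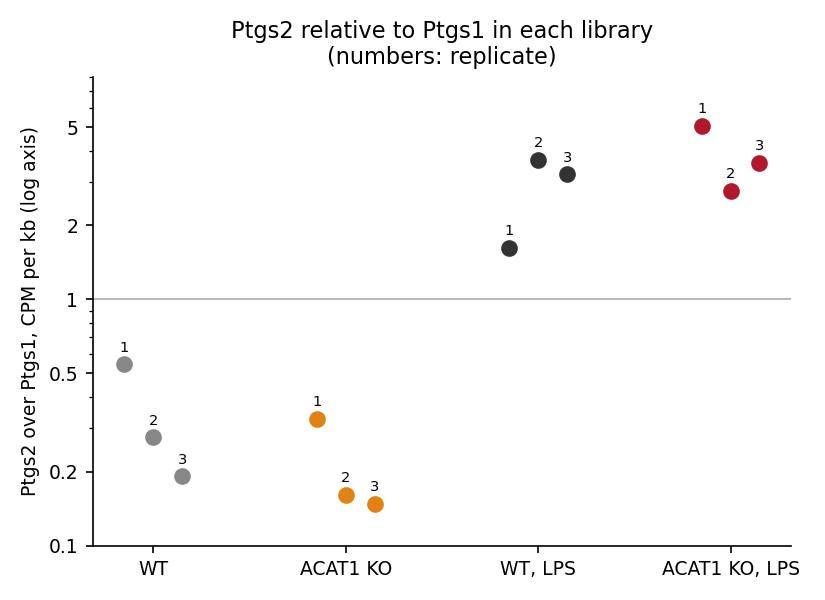
Ratio of Ptgs2 to Ptgs1 in CPM per kilobase for each of the 12 libraries on a log axis, with replicate numbers beside the points and a line at a ratio of 1. The 6 unstimulated libraries lie between 0.148 and 0.546 and the 6 LPS libraries between 1.62 and 5.06.

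Ptges encodes microsomal prostaglandin E synthase 1, which acts after the cyclooxygenases, and occupies bases 30889471 to 30929863 of chromosome 2, minus strand (ENSMUSG00000050737). It was low, at 3.89, 5.23 and 4.44 CPM in unstimulated WT and 4.90, 3.86 and 3.75 CPM in unstimulated ACAT1 KO cells, and at 5.83, 7.71 and 5.52 CPM in WT and 6.44, 5.26 and 5.25 CPM in ACAT1 KO cells after LPS. The genotypes overlapped in both states, at log2 fold changes of -0.12 (95% interval -0.54 to 0.31) and -0.17 (95% interval -0.51 to 0.17). LPS raised it by 0.81 in WT and 0.74 in ACAT1 KO cells (adjusted p = 0.00157 and 0.00257, edgeR). Per kilobase it was 0.0128 to 0.0219 of the Ptgs2 level after LPS.

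Of 21 prostanoid and leukotriene partners, 17 were tested. Between genotypes, 0 passed without stimulation, where 6 of 17 had an unadjusted p under 0.05 by edgeR, against 19.7% of all genes. After LPS, 1 passed as higher and 2 as lower, beside 5.93% and 9.12% of all genes. Ptgis, which encodes prostacyclin synthase, was higher but near silent, at 0.172 ± 0.107 CPM in WT and 0.522 ± 0.0524 CPM in ACAT1 KO cells (SD, n = 3), 2.82-fold higher (adjusted p = 0.0298, edgeR). Ptges3, the cytosolic prostaglandin E synthase that is also the HSP90 co-chaperone p23, was lower at 265 ± 21.6 and 213 ± 6.53 CPM, a log2 fold change of -0.32 (adjusted p = 0.0226). Ptgr2, which encodes prostaglandin reductase 2, was lower at 29.0 ± 0.879 and 24.1 ± 0.204 CPM, a log2 fold change of -0.26 (adjusted p = 0.0193). The list's median was 0.01 without stimulation and -0.05 after LPS. LPS raised 5 and lowered 6 of the 17 in WT, beside 29.3% and 28% of all genes, and raised 5 and lowered 7 in ACAT1 KO cells, beside 29.5% and 31.2%. The prostaglandin E2 receptor genes Ptger2 and Ptger4 rose by 2.12 and 1.76 in WT and by 2.03 and 1.04 in ACAT1 KO cells, while Pla2g4a, which encodes the phospholipase that frees arachidonic acid, fell by 0.97 and 1.04 (all by edgeR, adjusted p at most 0.00964).

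Sod2 encodes the mitochondrial manganese superoxide dismutase and occupies bases 13006846 to 13040063 of chromosome 17, plus strand (ENSMUSG00000006818). Its 250 bases before the RefSeq start, at chr17:13007589-13007838 (+ strand) in GRCm38.p6, are shown because Sod2 was, with Acod1, the member higher in ACAT1 KO cells after LPS. The capitals mark a match to the kappaB consensus, bound by NF-kB factors, at bases 83 to 74 before the start.
Sod2: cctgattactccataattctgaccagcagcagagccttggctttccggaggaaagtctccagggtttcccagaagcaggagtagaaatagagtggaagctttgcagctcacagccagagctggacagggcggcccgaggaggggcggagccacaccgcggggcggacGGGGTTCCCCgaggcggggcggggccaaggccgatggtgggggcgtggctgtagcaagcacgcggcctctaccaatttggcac
A match on either strand occurs in 7.25% of the 32851 promoters and in 2 of the 8 found for the members, the other being Gch1, where it spans bases 10 to 1 before the start.

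Sod2 was at 96.8, 100.1 and 104 CPM in unstimulated WT and 136, 91.8 and 110.3 CPM in unstimulated ACAT1 KO cells, and the groups overlapped (log2 fold change 0.17, 95% interval -0.16 to 0.49). With LPS it reached 579, 543 and 491 CPM in WT and 747, 659 and 697 CPM in ACAT1 KO cells, where each ACAT1 KO library lay above every WT library. The log2 fold change was 0.38 (SE 0.0792, edgeR adjusted p = 0.0190), or 1.3-fold higher. It missed the threshold without WT replicate 2 (adjusted p = 0.0562), without ACAT1 KO replicate 1 or 3 (adjusted p = 0.0674 and 0.0549), at log2 fold changes of 0.34 to 0.40, and when all 12 libraries shared a fit (adjusted p = 0.0735). LPS raised Sod2 by 2.74 in WT (SE 0.130, edgeR adjusted p = 9.16e-09) and 2.94 in ACAT1 KO cells (SE 0.131, edgeR adjusted p = 4.43e-09), and the difference of 0.20 had a 95% interval of -0.17 to 0.58. Of the 50-base stretches in Sod2 transcripts, 17.6% also occur in AC166110.4, which is in neither table, and 16% in Rps6ka2, which had at most 8.03% of the Sod2 counts in any library.

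Of 17 superoxide and peroxide partners, 16 were tested. After LPS 5 were higher and 0 lower in ACAT1 KO cells, where 5.93% of all genes were higher and 9.12% lower. The list median was 0.12 beside -0.0041 over all genes. This list was chosen with earlier results of these data known, so its excess over these shares is a description and not a test. Cybb, which encodes the catalytic gp91phox subunit of the phagocyte NADPH oxidase that makes superoxide, went from 1353 ± 226 CPM in WT to 2482 ± 165 CPM in ACAT1 KO cells (SD, n = 3), which is 0.87 in log2 fold change (adjusted p = 0.00581, edgeR). Its partner subunit gene Cyba was at 324 ± 15.9 and 388 ± 11.3 CPM, a log2 fold change of 0.26 (adjusted p = 0.0246). The peroxide-removing genes Prdx5 and Cat and the thioredoxin reductase gene Txnrd1 were higher by 0.48, 0.47 and 0.39 (adjusted p = 0.00373, 0.0478 and 0.0492, edgeR). The 5 thus include subunits of the enzyme that makes superoxide as well as, in Prdx5 and Cat, genes for enzymes that remove peroxides. Without stimulation only Cybb passed, beside 1.91% of all genes, with a list median of 0.06. It was at 523 ± 57.9 CPM in WT and 877 ± 131 CPM in ACAT1 KO cells (log2 fold change 0.75, adjusted p = 0.0464, edgeR). Whether the calls of these partners hold without single libraries was not tested. LPS raised 6 and lowered 2 of the 16 in each genotype, beside 29.3% and 28% of all genes in WT and 29.5% and 31.2% in ACAT1 KO cells, with the largest rise in Txnrd1, which encodes thioredoxin reductase 1, by 2.10 in WT and 2.48 in ACAT1 KO cells.

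**Figure D4:**
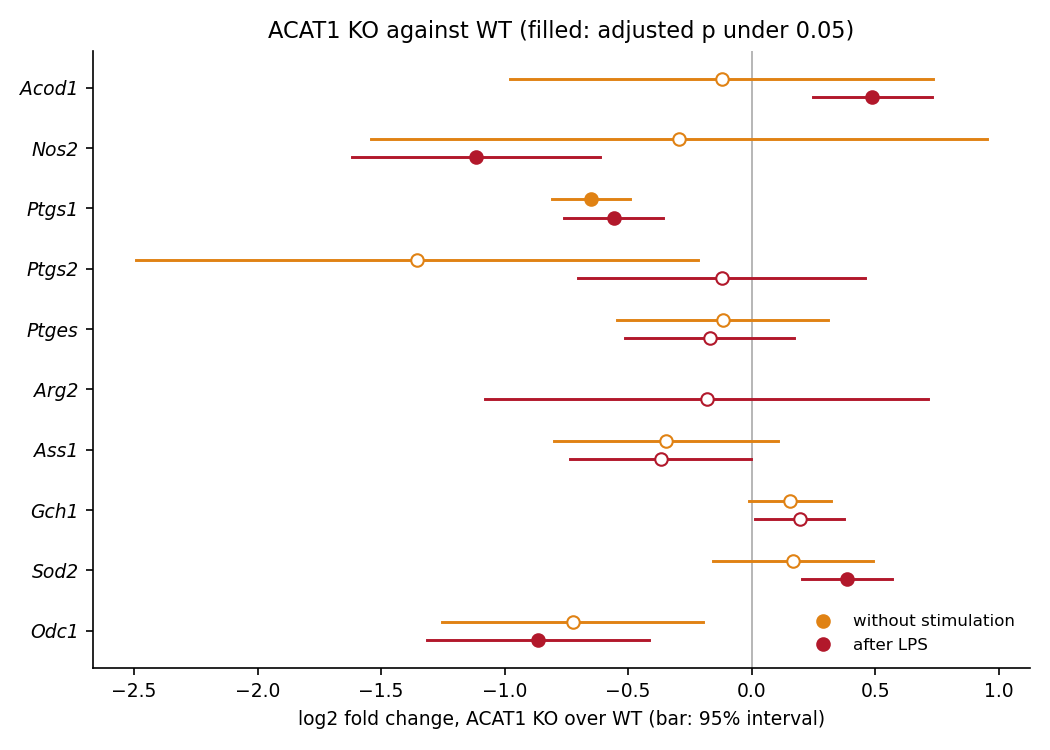
Log2 fold change of ACAT1 KO against WT for the 10 genes without stimulation (orange) and after LPS (red), with 95% intervals, where a filled point passed an adjusted p under 0.05. Ptgs1 is filled in both states at -0.65 and -0.56, and Acod1 and Sod2 are filled on the right after LPS only, although no difference between the states was called for any member.

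**Figure D5:**
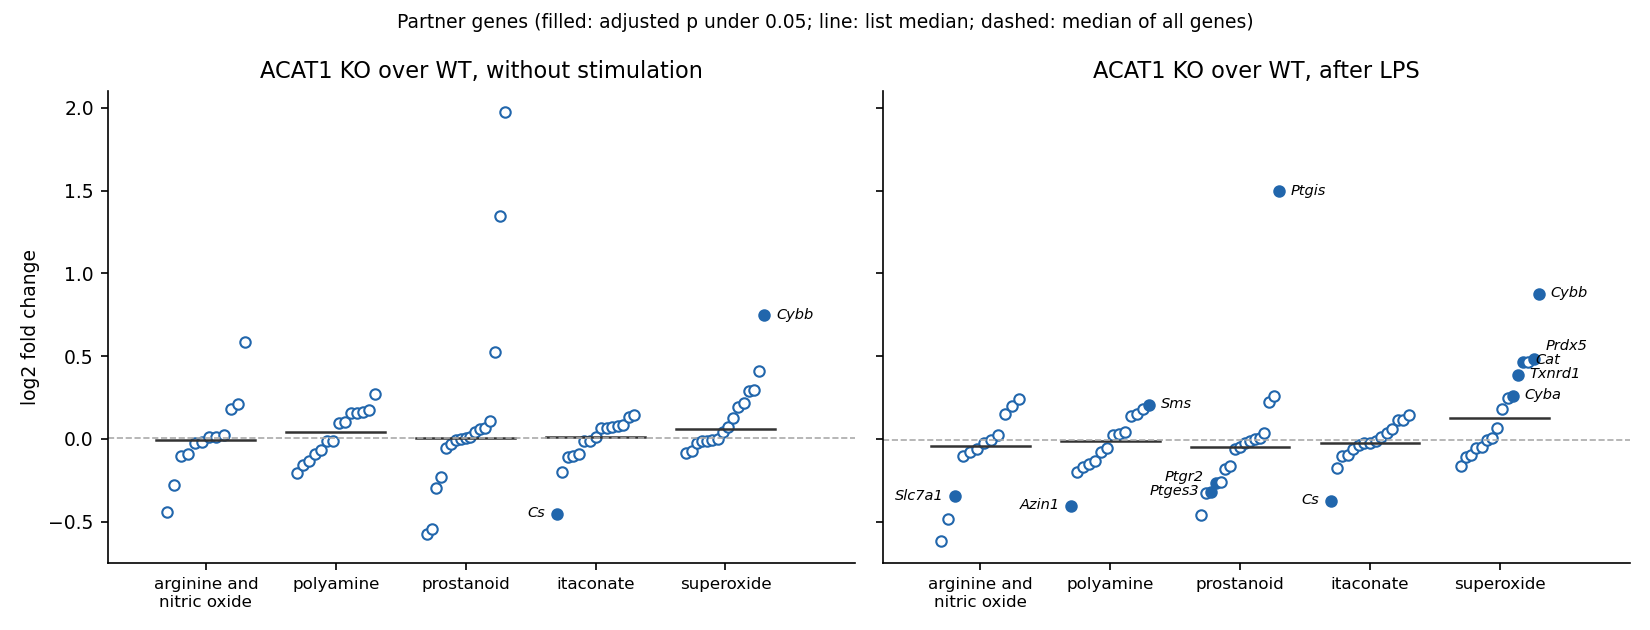
Log2 fold change of ACAT1 KO against WT for each tested partner gene in 5 lists, without stimulation (left) and after LPS (right), where filled and named points passed an adjusted p under 0.05, lines are list medians and dashed lines the median of all genes. The named points after LPS include 5 in the superoxide list above 0 and Cs, Azin1 and Slc7a1 below 0.

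Levels of different genes were compared per kilobase of exon, with all annotated exons of a gene joined. A gene with annotated exons that these cells do not use would therefore read too low. In unstimulated WT cells Odc1 (69.8 ± 23.3 CPM per kilobase) and Ptgs1 (69.4 ± 3.79) were highest and overlapped, followed by Ass1 (44.8 ± 8.10) and Ptgs2 (23.9 ± 14.5), which also overlapped. Sod2 (10.0 ± 0.379), Gch1 (7.98 ± 0.241), Acod1 (4.36 ± 1.87), Ptges (1.15 ± 0.171) and Nos2 (0.0617 ± 0.0420) followed, each apart from the next. In unstimulated ACAT1 KO cells Ptgs1 (44.2 ± 1.65), Odc1 (42.2 ± 3.50) and Ass1 (35.2 ± 8.14) led and each overlapped the next, and Sod2, Ptgs2 and Gch1 overlapped likewise at 11.3, 9.33 and 8.88. After LPS Acod1 was first in both genotypes, at 834 ± 112 in WT and 1170.1 ± 56.2 in ACAT1 KO cells, with all its libraries above those of any other member. In WT Odc1 (134 ± 41.5), Ptgs2 (104 ± 33.5), Ass1 (55.3 ± 12.1) and Sod2 (53.7 ± 4.44) came next and each overlapped its neighbor. In ACAT1 KO cells Ptgs2 (95.5 ± 24.5), Odc1 (73.7 ± 6.01) and Sod2 (70.1 ± 4.41) came next and overlapped, with Ass1 (42.8 ± 6.35) apart. Nos2 (18.8 ± 6.52) lay above Gch1 (13.3 ± 0.733) in all WT LPS libraries, and Gch1 (15.3 ± 1.41) lay above Nos2 (8.69 ± 1.11) in all ACAT1 KO LPS libraries. Ptges and Arg2 were last in both. All of these are means with SD over 3 libraries.

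The genes most like each member over the 12 libraries were taken by Pearson r of log2 CPM among 11960 genes. The unstimulated and LPS libraries form separate clusters, so a high r mostly reads a shift between states that is large beside the spread within them, whatever its size. For Acod1 they were Gbp5, Traf1 and Dnajb2 (r = 0.999, 0.999 and 0.998) and for Nos2 they included Scyl2 and Myo10 (r = 0.998 and 0.997). Those of Ptgs2 were Tesl1, Tiparp and Pim1 (r = 0.994, 0.983 and 0.981), and those of Sod2 were Pwp1, Blcap and Tpm4 (r = 0.998, 0.998 and 0.997). Ptgs1, the member that fell, was most like Slc9a3r1, Mta3 and Cd244a (r = 0.976, 0.970 and 0.970).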

How the data were processed

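RNA from 12 J774A.1 samples was sequenced after directional library preparation (NEBNext Ultra II). According to the labels and the study's methods, reads were trimmed with Trimmomatic 0.33, aligned to GRCm38 with HISAT2 and quantified with StringTie. The authors deposited raw counts per gene in 2 tables, 1 for each state. How whole counts were taken from the StringTie output, and whether strand was used, is not given in the sources used here. The same deposited tables hold 12 columns of log2 values, and p-values and score columns (t and B statistics, fold changes) of the authors' own comparison, which were not used.

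Rows listed more than once (59 and 57) were removed, which left 17544 and 17874 genes, 16699 of them in both. All listed genes reach 4 counts in no fewer than 5 libraries of a state, and rarer ones are not analysed here. Counts were filtered with filterByExpr, scaled by TMM and tested with the edgeR 4.0.16 quasi-likelihood test (R 4.3.3), within each state for genotype and over all 12 libraries for LPS and the interaction, with Benjamini-Hochberg adjusted p-values and a threshold of 0.05. DESeq2 1.42.0, limma-voom 3.58.1, other scalings and filters, a replicate block and leaving out libraries were the alternatives, and the scripts were tested on simulated data. Depth limits Nos2 without stimulation and Arg2.

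The members and the partner lists were chosen with earlier results of these data known. The named genes are the members, the partners past the threshold and the 3 genes most correlated with each member, 1 of which is not reported here. Promoters are RefSeq sequences on GRCm38.p6, found for 8 of 10 members (not Nos2 and Arg2). The labels do not say that samples with the same number belong together.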

Additional observations from a re-analysis of the deposited data

How the results depend on the processing

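Leaving out libraries in turn gave 0 to 1 members and 7 to 522 genes called between genotypes without stimulation, 1 to 5 members and 867 to 2245 genes after LPS, 8 to 9 members for LPS in each genotype, and 0 members and 2 to 41 genes for the interaction. Partner genes were not followed singly in any of the alternatives, so how far their calls depend on single libraries was not tested. Without stimulation, DESeq2 called 2 members (Ptgs1 and Odc1) and 1721 genes, a filter of at least 10 counts 475 genes, a single fit of 12 libraries 1353, a term for the high-antisense libraries 664, and a fit without them 0 members and 66 genes. After LPS the fit of 12 libraries called 3 members. Interaction calls numbered 334 by DESeq2, 11 by limma-voom, 69 with the antisense term and 2 without those libraries. With the replicate block, 2 members (Ptgs1, and Ptgs2 at -1.28, adjusted p = 0.0324) and 151 genes were called without stimulation and 288 for the interaction, and the 5, 9, 9 and 0 members of the other comparisons did not change in number. Between genotypes this block pairs WT and ACAT1 KO libraries of the same number, which are different lines. Such unstimulated libraries correlated at -0.337, 0.65 and 0.644 for numbers 1, 2 and 3 over all genes tested. WT and ACAT1 KO libraries of unlike numbers correlated at -0.793 to 0.61. Each pair above 0 lay within the high-antisense libraries or within the others, and each pair below 0 joined the 2 sets. For LPS and the interaction the block pairs the states within a genotype. Same-numbered samples of the 2 states correlated at 0.0913 to 0.307 in 6 pairs, with 5 over 0.1, over all genes tested, and the numbers were not taken as pairing by a rule that asks for all 6. Over genes with a mean of at least 1 CPM, a set chosen after seeing the data, all 6 were over 0.1 (0.139 to 0.454, against at most 0.0976 for other numbers), and in both sets all 6 correlated best with their own number, a hint from the data that leaves the pairing undecided.

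Signs turned only among differences that missed the threshold. Between genotypes without stimulation, Nos2 was 0.0034 by limma-voom, 0.051 with the antisense term and 1.08 without the high-antisense libraries, where Acod1 was 0.17 and Ass1 0.065. For the interaction, Ass1 was 0.031 with upper-quartile scaling and Gch1 -0.033 without the high-antisense libraries. Leaving out single libraries moved Acod1 from -0.48 to 0.27, Nos2 from -0.71 to 0.37, Ptges from -0.27 to 0.0021 and Sod2 from -0.0089 to 0.30 without stimulation, Ptgs2 from -0.35 to 0.11 after LPS, and the interaction of Ptges from -0.18 to 0.10, Ass1 from -0.18 to 0.17, Gch1 from -0.041 to 0.10 and Odc1 from -0.40 to 0.11. The LPS rise of Ass1 also missed the threshold with upper-quartile scaling in WT (0.41, adjusted p = 0.0900) and ACAT1 KO cells (0.44, adjusted p = 0.0700), which shifted the median of all genes by -0.209 and -0.149 (log2). The cause was not tested for any of these. Of 893 alternative values of members, 826 counted as unchanged. For a fit this means the same direction and side of the threshold. Values within the high-antisense libraries or the others have no p-value and were judged by distance from the main value relative to its SE. Their sign could therefore turn, as for Acod1 at 0.094 within the others. Between genotypes after LPS, values past the threshold for Acod1, Nos2, Ptgs1, Sod2 and Odc1 numbered 10, 12, 14, 10 and 10 of 14. In the 6 fits that left out a library, these 5 members passed 3, 4, 6, 3 and 2 times.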
